A study of Mus musculus with 4 samples.

Results

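The S100a genes encode small proteins of the S100 calcium-binding family. They were followed here in blood progenitors that had lived in a leukemic or a leukemia-free bone marrow. All symbols of the deposited gene list that start with S100a were taken, which gave 9 of 13978 genes: S100a1, S100a4, S100a5, S100a6, S100a8, S100a9, S100a10, S100a11 and S100a13. The family was chosen with its levels by group and by progenitor type already in view, so those levels and their differences are descriptions. The B-ALL environment group came from wild-type CD45.1 mice injected through the tail vein with 150000 primary tumor cells. These cells were taken from the lymph node of 1 leukemic CD45.2 mouse with the genotype Ebf1+/-Pax5+/-, so the model rests on a single donor leukemia of B-cell acute lymphoblastic type (B-ALL). The PBS control group came from wild-type CD45.1 mice given phosphate-buffered saline. In both groups host marrow cells that were KIT+, Lin-, CD45.2- and CD45.1+ were sorted after 3 weeks and sequenced by droplet from the 3′ end of transcripts. The labels give 2 samples per group, but the cells carry only a group prefix. Each group is therefore 1 sample, there is no replicate check, and no p-value can be given.

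S100 proteins are short proteins with a pair of EF-hand loops. In most members these loops bind calcium, which opens a surface for partner proteins. Inside cells they bind annexins, myosin and other parts of the membrane skeleton. Some are also released and act on receptors such as RAGE and Toll-like receptor 4. In marrow, S100a8 and S100a9 are best known as abundant products of neutrophils and monocytes, where they form calprotectin.

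Each group held 5882 cells, with 76059014 unique molecular identifiers (UMIs, counted transcripts) in the B-ALL environment and 68391214 in the PBS control. A cell had 357 to 56671 UMIs in the B-ALL environment, with a median of 10458, and 3070 to 48408 in the PBS control, with a median of 10189. Mitochondrially encoded genes took 5.14% of UMIs in the B-ALL environment and 3.56% in the PBS control. The groups shared 18 cell barcodes. Kit, the gene of the sorted receptor, had a UMI in 79.1% of cells of the B-ALL environment and 92.9% of cells of the PBS control. Levels are given as UMIs per 1000000 (CPM) after TMM scaling. Differences are log2 folds with the B-ALL environment on top, so that a positive value means a higher level there. Their 95% intervals cover counting error only. Cells were put into 10 named classes by marker genes that exclude the S100a genes, and such classes are written as X-like. All 9 S100a genes took 960.3 plain CPM in the B-ALL environment and 957.2 in the PBS control, so the family's summed share of all UMIs was close in both groups while single members differed.

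All 9 genes lie on chromosome 3 (GRCm38), in 2 stretches. S100a4, S100a5 and S100a6 stand in tandem on the plus strand, at 90603771-90606045, 90608523-90611780 and 90612882-90624181. The gaps between them are 2477 and 1101 bases. S100a8 (90668978-90670035, plus strand) and S100a9 (90692632-90695721, minus strand) follow, with 22596 bases between them. S100a1 (90511034-90514392, minus strand) and S100a13 (90514435-90524581, plus strand) start head to head 42 bases apart. S100a11 (93520488-93526287) and S100a10 (93555080-93564643) lie farther along on the plus strand. A processed copy of S100a11 lies on chromosome 12 and is not in the gene list, and how reads shared with it were counted is not given in the sources used here. S100a4 overlaps a predicted gene on its own strand that is not in the gene list either.

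The promoters of the tandem genes S100a4, S100a5 and S100a6 and of the calprotectin genes S100a8 and S100a9 are shown because these 5 genes had the largest folds of the family. Each sequence is from RefSeq on GRCm38.p6, reads 5′ to 3′ on the gene's strand and holds 250 bases before the start and the first 30 bases after it. Capitals mark matches on either strand to motifs of factors that act in blood cells. These are TTGCNNAA for C/EBP factors, the looser TTNCNNAA, which covers the first, and AGAGGAAG for PU.1. The letters AGATAA stand for factors of the GATA family. The core promoter element TATAAA was added after the windows were seen.
S100a4 promoter, chr3:90603520-90603799, + strand: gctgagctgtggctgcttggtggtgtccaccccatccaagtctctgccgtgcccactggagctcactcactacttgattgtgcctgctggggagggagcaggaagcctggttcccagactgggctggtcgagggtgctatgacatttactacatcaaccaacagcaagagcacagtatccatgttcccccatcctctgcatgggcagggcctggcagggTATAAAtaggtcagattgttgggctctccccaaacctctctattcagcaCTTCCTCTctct
S100a5 promoter, chr3:90608272-90608551, + strand: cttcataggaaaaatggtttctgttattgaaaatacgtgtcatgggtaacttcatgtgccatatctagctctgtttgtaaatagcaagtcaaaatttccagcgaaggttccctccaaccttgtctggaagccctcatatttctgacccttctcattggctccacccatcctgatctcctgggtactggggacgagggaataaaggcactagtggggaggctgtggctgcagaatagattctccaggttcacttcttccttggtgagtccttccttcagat
S100a6 promoter, chr3:90612644-90612923, + strand: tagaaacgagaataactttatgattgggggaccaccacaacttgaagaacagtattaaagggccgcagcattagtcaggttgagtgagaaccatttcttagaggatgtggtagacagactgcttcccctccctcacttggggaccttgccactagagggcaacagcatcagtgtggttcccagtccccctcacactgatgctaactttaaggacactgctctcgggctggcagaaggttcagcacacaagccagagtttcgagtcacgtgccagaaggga
S100a8 promoter, chr3:90668821-90669100, + strand: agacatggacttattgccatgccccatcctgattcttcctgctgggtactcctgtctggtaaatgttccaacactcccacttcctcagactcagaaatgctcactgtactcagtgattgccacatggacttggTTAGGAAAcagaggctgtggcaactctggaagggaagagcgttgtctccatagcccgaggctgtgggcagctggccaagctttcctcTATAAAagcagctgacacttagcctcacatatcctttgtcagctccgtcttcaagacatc
S100a9 promoter, chr3:90695692-90695971, - strand: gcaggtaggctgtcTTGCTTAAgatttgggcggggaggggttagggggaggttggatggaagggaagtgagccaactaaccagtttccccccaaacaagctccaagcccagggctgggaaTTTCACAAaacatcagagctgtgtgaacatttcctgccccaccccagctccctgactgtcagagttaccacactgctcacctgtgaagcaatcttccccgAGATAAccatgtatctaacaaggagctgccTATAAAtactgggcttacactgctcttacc
S100a4 carries TATAAA at base -31 from its start and the PU.1 letters, read on the other strand, at base 19. S100a8 carries TATAAA at -30 and the looser C/EBP letters at -117. S100a9 carries the strict C/EBP letters at -236, the looser ones again at -130, AGATAA at -30 and TATAAA at 1. The promoters of S100a5 and S100a6 hold none of the searched letters. Among 32851 RefSeq promoters of the same length, 13.6% hold TATAAA, 4.55% the PU.1 letters, 10.8% the strict and 40.7% the looser C/EBP letters, and 11.2% AGATAA. Of the 9 members, 8 had an entry in the promoter table and S100a10 had none.

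**Figure D1:**
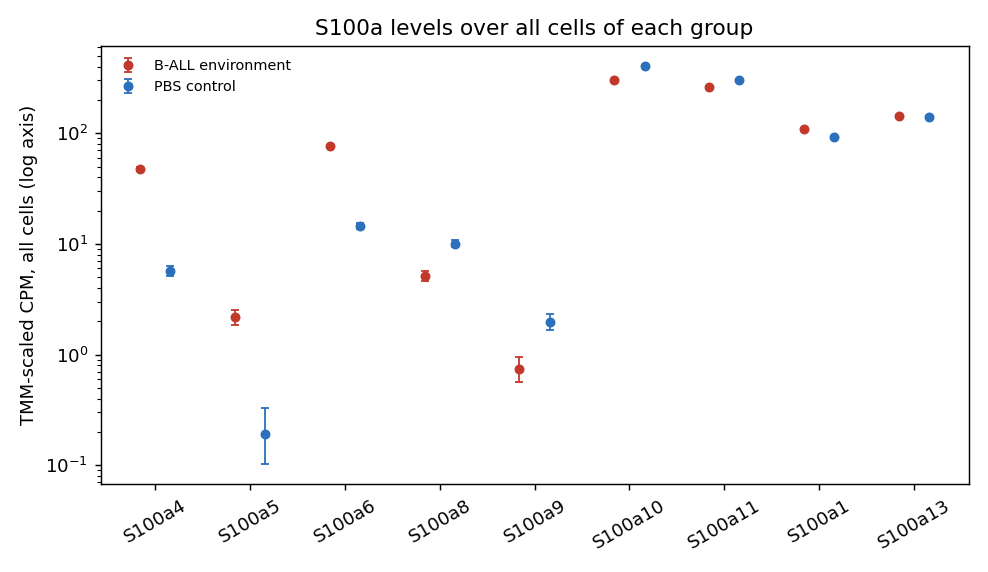
Levels of the 9 S100a genes over all cells in TMM-scaled CPM on a log axis, with B-ALL environment in red, left of PBS control in blue, and bars for exact 95% Poisson intervals of counting error. S100a4, S100a5 and S100a6 were higher in the B-ALL environment, S100a8 and S100a9 were lower, and the other 4 genes were close.

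Over all cells, the tandem genes S100a4, S100a5 and S100a6 were higher in the B-ALL environment and the calprotectin genes S100a8 and S100a9 were lower. S100a10, S100a11, S100a1 and S100a13 stayed within 1.5-fold, a log2 fold of 0.585. Of the 6 members averaging 10 CPM or more over both groups, 2 were higher past 1.5-fold (S100a4 and S100a6) and 0 were lower. Of 8781 genes at that level, 3.94% were higher and 2.79% were lower, and nothing is read from the comparison because the family was chosen on this contrast. The median log2 fold was 0.13 over the 6 members and -0.02 over all genes. S100a4 ranked 14 and S100a6 ranked 30 of the 8781 genes from the highest fold. S100a5, S100a8 and S100a9 were under 10 CPM on average and are described by their counts.

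S100a4, also called metastasin, binds non-muscle myosin and is linked to cell motility. It had 3660 UMIs in the B-ALL environment and 385 in the PBS control, or 47.5 CPM in the B-ALL environment and 5.70 CPM in the PBS control, a log2 fold of 3.06 (95% interval 2.91 to 3.22). S100a6, calcyclin, is a small protein of dividing and moving cells that binds CacyBP and annexins. It had 5872 UMIs in the B-ALL environment and 976 in the PBS control, or 76.3 CPM in the B-ALL environment and 14.4 CPM in the PBS control, a log2 fold of 2.40 (2.30 to 2.50). S100a5, the gene between them, had 167 UMIs in the B-ALL environment and 13 in the PBS control, a log2 fold of 3.49 (2.68 to 4.43). The 3 intervals of the tandem genes all lay above 0. In sums over all cells, a change in the make-up of cell classes and a change per cell cannot be told apart. HSC-like cells (hematopoietic stem cell-like) were 1125 of 5882 cells in the B-ALL environment and 330 of 5882 in the PBS control. Once each class was cut to the same number of cells in both groups, the log2 fold was 2.44 for S100a4, 1.81 for S100a6 and 2.58 for S100a5.

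The share of cells with a UMI moved the same way. S100a4 had a UMI in 29.3% of cells in the B-ALL environment and 5.25% in the PBS control. S100a6 had one in 43.3% of cells in the B-ALL environment and 11.9% in the PBS control. After each cell was thinned to 3000 UMIs, which left out 179 cells of the B-ALL environment and 0 of the PBS control, the shares for S100a4 were 13.2% in the B-ALL environment and 1.80% in the PBS control. For S100a6 they were 20.4% in the B-ALL environment and 4.17% in the PBS control. In erythroid-like cells, where little of either gene was found, S100a4 had a UMI in 3.45% of cells in the B-ALL environment and 0.472% in the PBS control, at median depths of 14321 UMIs in the B-ALL environment and 13124.5 in the PBS control. S100a6 had one in 7.39% of those cells in the B-ALL environment and 1.77% in the PBS control. HSC-like cells had lower median depths, 7365 UMIs in the B-ALL environment and 7309.5 in the PBS control. S100a4 had a UMI in 52.3% of them in the B-ALL environment and 12.7% in the PBS control, and S100a6 in 67.9% in the B-ALL environment and 28.8% in the PBS control. The part of free RNA in the shares of either class was not tested. Over all cells, UMIs were not gathered in a few cells. The 10 richest cells held 7.35% of S100a4 UMIs in the B-ALL environment and 13.8% in the PBS control. For S100a6 they held 3.71% in the B-ALL environment and 7.38% in the PBS control. Of the 10 cells richest in S100a4 in the B-ALL environment, 5 were lymphoid-primed-like, and the richest cell of all held 45 UMIs. How much of the lymphoid-primed-like level came from such cells is not given here.

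**Figure D2:**
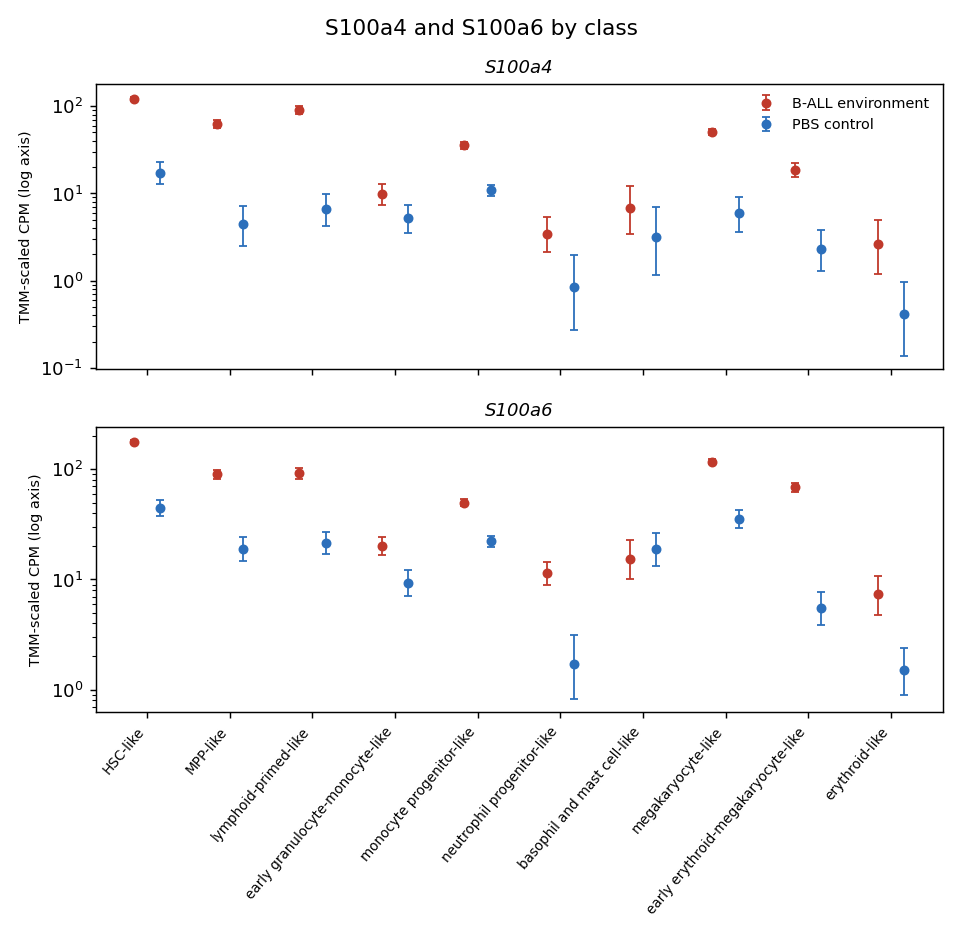
S100a4 and S100a6 in the 10 named classes in TMM-scaled CPM on a log axis, with B-ALL environment in red, left of PBS control in blue, and bars for exact 95% Poisson intervals. S100a4 was higher in the B-ALL environment in all 10 classes, and S100a6 in all but the basophil and mast cell-like class, where the intervals overlap.

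Within classes the same direction was seen in cells of stem, lymphoid, myeloid and megakaryocyte type. S100a4 had a positive log2 fold in all 10 classes, and the interval lay above 0 in 9 of them. The exception was the basophil and mast cell-like class, with 11 UMIs in the B-ALL environment and 6 in the PBS control (log2 fold 1.10, -0.46 to 2.82). In erythroid-like cells S100a4 had 9 UMIs in the B-ALL environment and 5 in the PBS control. In neutrophil progenitor-like cells it had 20 in the B-ALL environment and 5 in the PBS control. These classes and the early granulocyte-monocyte-like class averaged under 10 CPM for S100a4. S100a6 had a positive log2 fold with its interval above 0 in 9 of 10 classes. In the basophil and mast cell-like class it had 25 UMIs in the B-ALL environment and 36 in the PBS control (log2 fold -0.30, -1.10 to 0.48). In erythroid-like cells S100a6 had 25 UMIs in the B-ALL environment and 18 in the PBS control. The part of free RNA in the folds of S100a4 and S100a6 was not tested. Over the 19 map clusters with at least 30 cells in both groups, S100a4 was higher in the B-ALL environment in all 19 and S100a6 in 18. With cells put in classes by their summed marker levels and no clustering, the log2 fold of S100a4 was 2.59 in lymphoid-primed-like and 2.30 in early granulocyte-monocyte-like cells, and that of S100a6 was 2.23 in early erythroid-megakaryocyte-like, 1.96 in early granulocyte-monocyte-like, 1.52 in lymphoid-primed-like and 0.67 in basophil and mast cell-like cells. With finer clusters S100a6 was at 1.78 in neutrophil progenitor-like cells. In cells with at least 10189 UMIs, S100a4 was at 4.79 in MPP-like cells, on 4 UMIs in the PBS control. Without the cells with the highest 5% of doublet scores, S100a4 turned to -0.42 in basophil and mast cell-like cells on 4 UMIs in the B-ALL environment and 6 in the PBS control.

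By CPM, S100a4 levels in the B-ALL environment fell in steps from HSC-like to early erythroid-megakaryocyte-like cells, with 4 classes below them. HSC-like cells had 122 CPM in the B-ALL environment and 17.1 in the PBS control. Lymphoid-primed-like cells had 90.2 CPM in the B-ALL environment and 6.61 in the PBS control, a log2 fold of 3.77 (3.17 to 4.43). After thinning, S100a4 had a UMI in 47 of 321 lymphoid-primed-like and 100 of 697 megakaryocyte-like cells of the B-ALL environment. By that share the 2 classes were close. MPP-like cells (multipotent progenitor-like) had 62.6 CPM in the B-ALL environment and 4.42 in the PBS control, a log2 fold of 3.82 (3.10 to 4.65), the highest of the 10 classes. Then came megakaryocyte-like cells with 51.0 CPM in the B-ALL environment and 5.91 in the PBS control, and monocyte progenitor-like cells with 35.5 CPM in the B-ALL environment and 10.9 in the PBS control. Early erythroid-megakaryocyte-like cells had 18.6 CPM in the B-ALL environment and 2.31 in the PBS control. Neighbours among these classes did not overlap in their B-ALL environment intervals, which cover counting error only. The 4 lowest classes did overlap with their neighbours. They ran from the early granulocyte-monocyte-like class, at 9.81 CPM in the B-ALL environment and 5.21 in the PBS control, to the erythroid-like class, at 2.64 CPM in the B-ALL environment and 0.419 in the PBS control, with basophil and mast cell-like and neutrophil progenitor-like cells between them. In the PBS control the HSC-like level stood above its neighbour's interval, monocyte progenitor-like cells were next, and all neighbours below that overlapped.

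S100a6 followed a similar but not identical order. HSC-like cells had 178 CPM in the B-ALL environment and 44.8 in the PBS control. Megakaryocyte-like cells had 118 CPM in the B-ALL environment and 35.5 in the PBS control. Lymphoid-primed-like cells had 92.2 CPM in the B-ALL environment and 21.5 in the PBS control, and MPP-like cells 89.8 CPM in the B-ALL environment and 19.1 in the PBS control. The lymphoid-primed-like and MPP-like levels overlapped in their intervals. Early erythroid-megakaryocyte-like cells had 68.8 CPM in the B-ALL environment and 5.55 in the PBS control, a log2 fold of 3.63 (3.14 to 4.16), the highest of the 10 classes for this gene. In that class cluster 11 held most cells of the B-ALL environment (439 of 686) and cluster 5 most of the PBS control (591 of 937). Within cluster 11 the log2 fold of S100a6 was 2.92 and within cluster 5 it was 4.21. Monocyte progenitor-like cells had 49.8 CPM in the B-ALL environment and 22.2 in the PBS control. The remaining classes were at 7.35 to 20.3 CPM in the B-ALL environment and 1.51 to 19.1 in the PBS control. In the megakaryocyte-like class cluster 7 held most cells of the B-ALL environment (397 of 699) and cluster 17 most of the PBS control (193 of 358). The log2 fold of S100a6 was 1.66 in cluster 7 and 1.78 in cluster 17, and that of S100a4 was 3.18 in cluster 7 and 2.71 in cluster 17.

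The balance between the neighbours also differed. Over all cells there were 0.623 S100a4 UMIs per S100a6 UMI in the B-ALL environment (0.598 to 0.650) and 0.394 in the PBS control (0.350 to 0.444). In the B-ALL environment the ratio was 0.979 in lymphoid-primed-like and 0.270 in early erythroid-megakaryocyte-like cells. In the B-ALL environment, HSC-like cells held 35.0% of all S100a4 UMIs and 32.0% of all S100a6 UMIs, and 12.4% of the UMIs of all genes. In the PBS control they held 12.7% of S100a4 and 13.1% of S100a6 UMIs, and 3.86% of the UMIs of all genes. Cells with a UMI of one gene did not always have one of the other: in the B-ALL environment, among thinned HSC-like cells, S100a4 had a UMI in 34.4% of those with S100a6 and 26.2% of those without. S100a5 was sparse, with 49 UMIs in the B-ALL environment and 6 in the PBS control over HSC-like cells (log2 fold 1.15, -0.07 to 2.66). In the other 9 classes it had at most 2 UMIs in the PBS control.

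Stem cell and megakaryocyte markers were higher along with these genes. Of all genes at 10 CPM or more, 3.94% were higher and 2.79% lower past 1.5-fold. Of 11 stem cell markers at that level, 9 were higher and 0 lower. The whole list of 15 summed to 842 CPM in the B-ALL environment and 378 in the PBS control. Of 9 megakaryocyte markers at 10 CPM or more, 5 were higher past 1.5-fold and 0 lower, and the 10 measured summed to 534 CPM in the B-ALL environment and 380 in the PBS control. Of the B cell, macrophage, T and NK cell and stromal markers, 1 reached 10 CPM and it stayed within 1.5-fold. Of 6 macrophage markers 5 were measured, and they summed to 7.47 CPM in the B-ALL environment and 4.57 in the PBS control. Of 7 T and NK cell markers 2 were measured, at 3.99 CPM summed in the B-ALL environment and 2.19 in the PBS control. Of 8 B cell markers 4 were measured, at 52.6 CPM summed in the B-ALL environment and 44.0 in the PBS control. Of 6 stromal and endothelial markers only Kdr was measured, at 2.91 CPM in the B-ALL environment and 0.696 in the PBS control. Of 7 dendritic cell markers 6 were measured, at 790 CPM summed in the B-ALL environment and 855 in the PBS control. The 3 at 10 CPM or more stayed within 1.5-fold. Below that level, Cd74 had 982 UMIs in the B-ALL environment and 94 in the PBS control (3.20). H2-Aa had 481 in the B-ALL environment and 100 in the PBS control (2.08), and Itgax had a log2 fold of -0.24. The part of these markers in the S100a folds was not tested. Without the globin-rich and immunoglobulin-rich cells, cluster 8, which those genes lead, and cluster 19, which T cell genes lead, the folds of S100a4 and S100a6 stayed within their intervals over all cells and in each of the 10 classes.

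**Figure D3:**
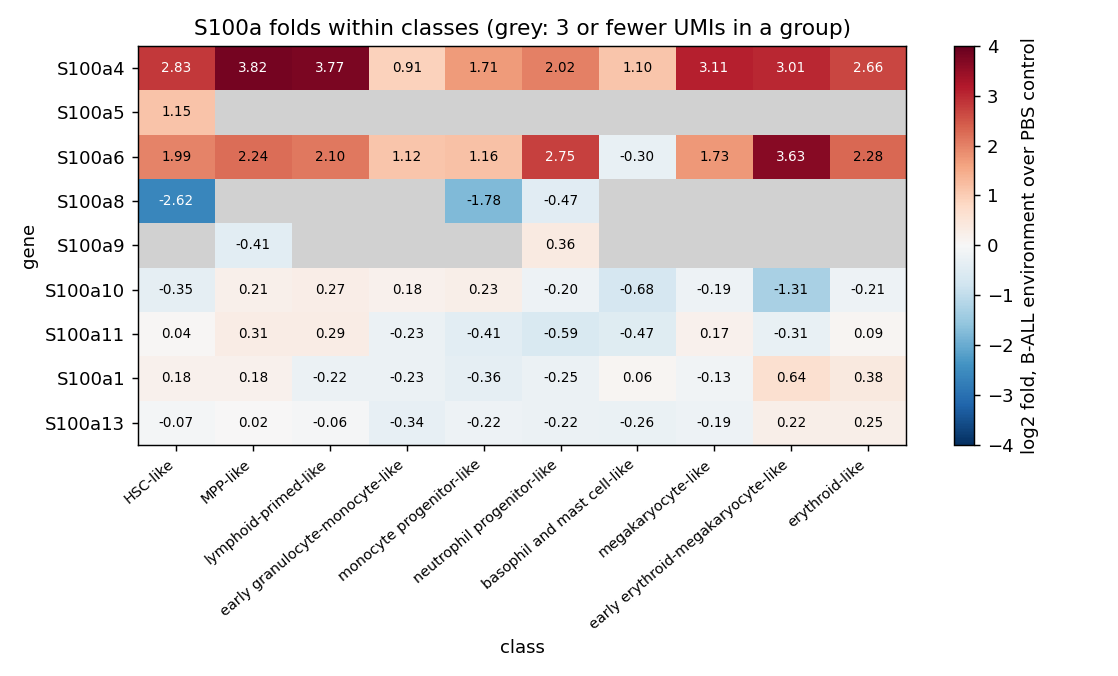
Log2 folds, B-ALL environment relative to PBS control, for the 9 S100a genes (rows) in the 10 named classes (columns), with higher in red, lower in blue and grey where a group had 3 or fewer UMIs. S100a4 and S100a6 were red in nearly every class, while S100a10 and S100a11 changed sign between classes.

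How many members passed 1.5-fold varied by class. Nothing is read from these counts, because the family was chosen on this contrast. In the PBS control S100a4 was under 10 CPM in MPP-like (4.42), lymphoid-primed-like (6.61), megakaryocyte-like (5.91) and early erythroid-megakaryocyte-like cells (2.31). S100a6 was so in early erythroid-megakaryocyte-like (5.55) and early granulocyte-monocyte-like cells (9.37). There each gene reached a mean of 10 CPM only through the B-ALL environment. In HSC-like cells 2 of 6 members at 10 CPM or more were higher, S100a4 and S100a6, as were 6.35% of all genes, and 0 were lower, beside 4.87% of all genes. The same pair was higher and 0 of 6 members were lower in 4 other classes. The background there was 5.25% higher and 3.23% lower in MPP-like cells and 4.67% higher and 2.83% lower in lymphoid-primed-like cells. It was 5.30% higher and 5.82% lower in megakaryocyte-like and 1.45% higher and 1.99% lower in monocyte progenitor-like cells. In early granulocyte-monocyte-like cells 1 of 5 members was higher, S100a6, as were 2.15% of genes, and 0 were lower, beside 2.01%. In early erythroid-megakaryocyte-like cells 3 of 6 were higher, S100a1, S100a4 and S100a6, beside 7.19% of genes, and 1 was lower, S100a10, beside 7.00%. In neutrophil progenitor-like cells 0 of 5 were higher (2.52% of genes) and 1 was lower, S100a11 (2.78%). In basophil and mast cell-like cells 0 of 5 were higher (6.84%) and 1 was lower, S100a10 (5.31%). In erythroid-like cells 0 of 4 members were higher (5.48%) and 0 were lower (4.75%). In unnamed cluster 9 6 of 6 members were higher and 0 were lower. Their median log2 fold there was 1.08, beside 0.15 over all genes. Cells of this cluster had a median of 10323 UMIs in the B-ALL environment and 4347 in the PBS control. The share of all genes past 1.5-fold in it is not given here.

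S100a8 and S100a9, the subunits of calprotectin, a metal-binding antimicrobial complex of neutrophils and monocytes, were low in these progenitors. S100a8 had 396 UMIs in the B-ALL environment and 679 in the PBS control, or 5.14 CPM in the B-ALL environment and 10.1 CPM in the PBS control, a log2 fold of -0.97 (-1.15 to -0.79). S100a9 had 57 UMIs in the B-ALL environment and 134 in the PBS control, a log2 fold of -1.42 (-1.90 to -0.96). Both intervals lay below 0. Of the S100a9 UMIs, 33.3% in the B-ALL environment and 77.6% in the PBS control lay outside the neutrophil progenitor-like class, in which its fold was 0.36.

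S100a8 was a gene of the neutrophil progenitor-like class, which held 360 of 396 UMIs for the B-ALL environment and 506 of 679 for the PBS control. Its level there was 62.3 CPM in the B-ALL environment and 86.2 in the PBS control, a log2 fold of -0.47 (-0.67 to -0.27). With classes by summed marker levels the fold was 0.14 (-0.07 to 0.35), so its direction depends on how the class is drawn. A UMI was found in 25.9% of these cells in the B-ALL environment and 34.3% in the PBS control, and after thinning in 9.80% in the B-ALL environment and 13.8% in the PBS control. The UMIs sat in few cells. The 10 richest cells held 218 of 360 in the B-ALL environment and 198 of 506 in the PBS control, with up to 70 UMIs in a cell of the B-ALL environment and up to 35 in one of the PBS control. All of them were in the neutrophil progenitor-like class. S100a9 had 38 UMIs in this class in the B-ALL environment and 30 in the PBS control, a log2 fold of 0.36 (-0.37 to 1.10), and that interval spans 0.

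**Figure D4:**
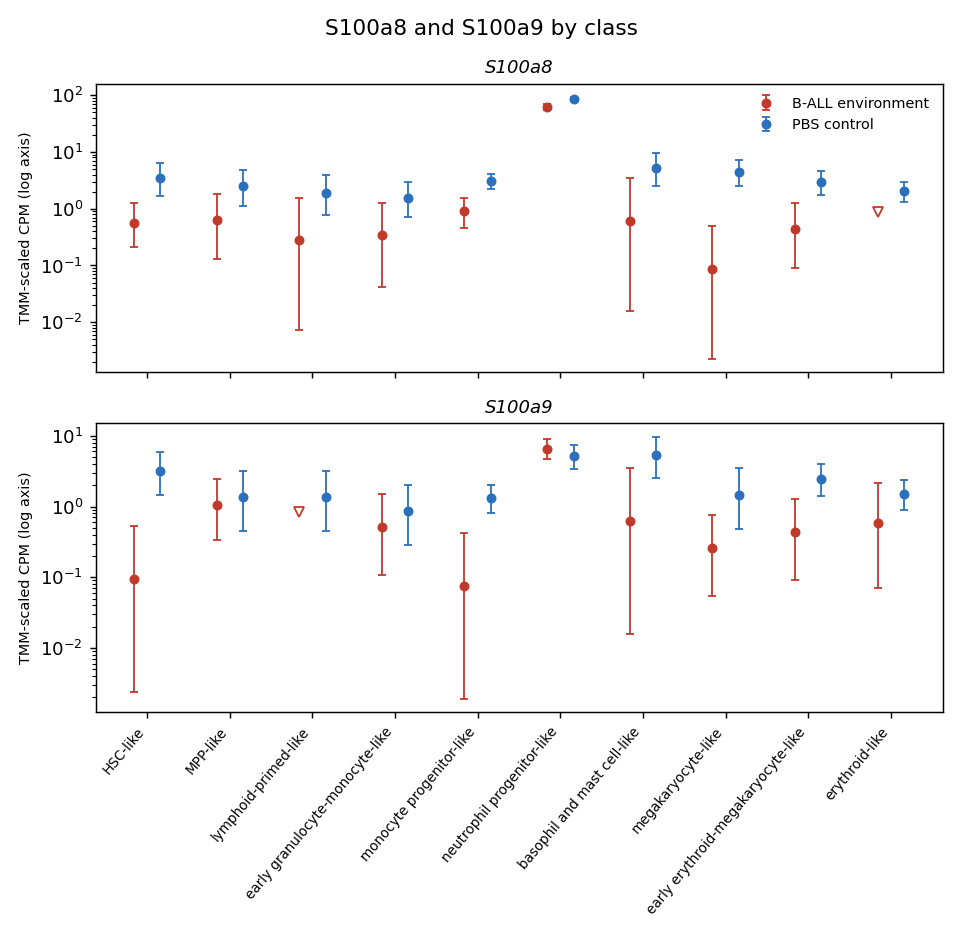
S100a8 and S100a9 in the 10 named classes in TMM-scaled CPM on a log axis, with B-ALL environment in red, left of PBS control in blue, bars for exact 95% Poisson intervals, and open triangles at the floor of 3 UMIs where a group had none. S100a8 stood highest in neutrophil progenitor-like cells in both groups, and in other classes most PBS control levels lie above those of the B-ALL environment.

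In the other 9 named classes neither gene had over 5.30 CPM, the level of each in basophil and mast cell-like cells of the PBS control, from 10 UMIs. In unnamed cluster 9 S100a8 had 9.92 CPM in the PBS control, from 8 UMIs, and 1.93 in the B-ALL environment, from 2. Outside the neutrophil progenitor-like class, unnamed clusters included, there were 5585 cells of the B-ALL environment and 5482 of the PBS control. Over these cells S100a8 had 36 UMIs in the B-ALL environment and 173 in the PBS control. It had a UMI in 0.627% of them in the B-ALL environment and 2.75% in the PBS control. Over the same cells S100a9 had 19 UMIs in the B-ALL environment and 104 in the PBS control. It had a UMI in 0.269% of them in the B-ALL environment and 1.79% in the PBS control. In erythroid-like cells, which should lack the gene, S100a8 had a UMI in 0 of 203 cells of the B-ALL environment, which allows a share of up to 1.48% by the floor of 3 cells and 1.80% by the exact limit, and in 2.48% of 848 cells of the PBS control. The B-ALL environment level there was at most 0.438 times the PBS control level, taking 3 UMIs as the floor, and the exact interval of the fold reached 0.582. In the PBS control S100a8 had 2.01 CPM in erythroid-like cells, against 3.08 in monocyte progenitor-like, 4.44 in megakaryocyte-like and 5.30 in basophil and mast cell-like cells. The part of free RNA in these UMIs was not tested. Outside the neutrophil progenitor-like class there were 1.89 S100a8 UMIs per S100a9 UMI in the B-ALL environment (1.06 to 3.50) and 1.66 in the PBS control (1.30 to 2.14). Inside it there were 9.47 in the B-ALL environment (6.77 to 13.6) and 16.9 in the PBS control (11.7 to 25.3).

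Neutrophil granule genes moved in both directions over all cells. Of 6 at 10 CPM or more, 3 were lower past 1.5-fold and 1 was higher, beside 2.79% lower and 3.94% higher of all genes tested, with a median log2 fold of -0.45. The lower ones were Ctsg (-1.14), Mpo (-0.90) and Elane (-0.81), which encode proteases and the peroxidase of primary granules. The higher one was Lcn2, a siderophore-binding protein, at 17.5 CPM in the B-ALL environment and 6.39 in the PBS control (1.45). Prtn3 (-0.09) and Cybb (0.35) stayed within 1.5-fold. Neutrophil progenitor-like cells were 297 of 5882 in the B-ALL environment and 400 of 5882 in the PBS control. Of 8 markers of mature neutrophils 3 were measured and summed to 54.5 CPM in the B-ALL environment and 45.4 in the PBS control, and their part in the calprotectin values was not tested. Among regulators of myeloid genes, 1 of 7 was higher, Cebpb (0.71), and 1 was lower, Cebpe (-0.89), with a median of -0.44.

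S100a10 and S100a11 are the members that pair with annexins. S100a10, known as p11, joins annexin A2 at the plasma membrane. It had 23141 UMIs in the B-ALL environment and 27129 in the PBS control, or 300.5 CPM in the B-ALL environment and 402 CPM in the PBS control, a log2 fold of -0.42 (-0.44 to -0.39). It had a UMI in 91.2% of cells in the B-ALL environment and 91.3% in the PBS control, and after thinning in 59.4% in the B-ALL environment and 64.2% in the PBS control. The largest difference was in the erythroid-megakaryocyte branch. Early erythroid-megakaryocyte-like cells had 380.5 CPM in the B-ALL environment and 943 in the PBS control, a log2 fold of -1.31 (-1.38 to -1.24). Within clusters of that class it was -1.02 in cluster 11 and -1.17 in cluster 5. Basophil and mast cell-like cells had 527 CPM in the B-ALL environment and 845 in the PBS control, a log2 fold of -0.68 (-0.80 to -0.56). That fold no longer passed 1.5-fold in cells of 10189 UMIs or more (-0.39) or with classes by summed marker levels (-0.34). Erythroid-like cells had 487 CPM in the B-ALL environment and 565 in the PBS control, a log2 fold of -0.21 (-0.29 to -0.14). With classes by summed marker levels that fold was -0.63, which passes 1.5-fold. In 4 classes the interval lay above 0, with folds of 0.18 in early granulocyte-monocyte-like, 0.21 in MPP-like, 0.23 in monocyte progenitor-like and 0.27 in lymphoid-primed-like cells. The MPP-like fold turned to -0.20 with finer clusters. The PBS control order ran from early erythroid-megakaryocyte-like and basophil and mast cell-like cells at the top to megakaryocyte-like (221 CPM) and neutrophil progenitor-like cells (177 CPM) at the bottom. In the B-ALL environment the basophil and mast cell-like class was first, and the early erythroid-megakaryocyte-like level overlapped in its interval with the lymphoid-primed-like one (382 CPM).

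S100a11, calgizzarin, binds annexin A1 and takes part in membrane repair. It had 20349 UMIs in the B-ALL environment and 20416 in the PBS control, or 264 CPM in the B-ALL environment and 302 CPM in the PBS control, a log2 fold of -0.19 (-0.22 to -0.17). Its highest level was in neutrophil progenitor-like cells, with 549 CPM in the B-ALL environment and 829 in the PBS control, a log2 fold of -0.59 (-0.66 to -0.53). With classes by summed marker levels it was -0.48, which does not pass 1.5-fold. Monocyte progenitor-like cells had 292 CPM in the B-ALL environment and 389 in the PBS control (-0.41, -0.47 to -0.36). MPP-like cells had 318 CPM in the B-ALL environment and 257 in the PBS control (0.31, 0.19 to 0.43), and erythroid-like cells were lowest at 136 CPM in the B-ALL environment and 128 in the PBS control. Intervals lay above 0 in 3 classes and below 0 in 5.

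**Figure D5:**
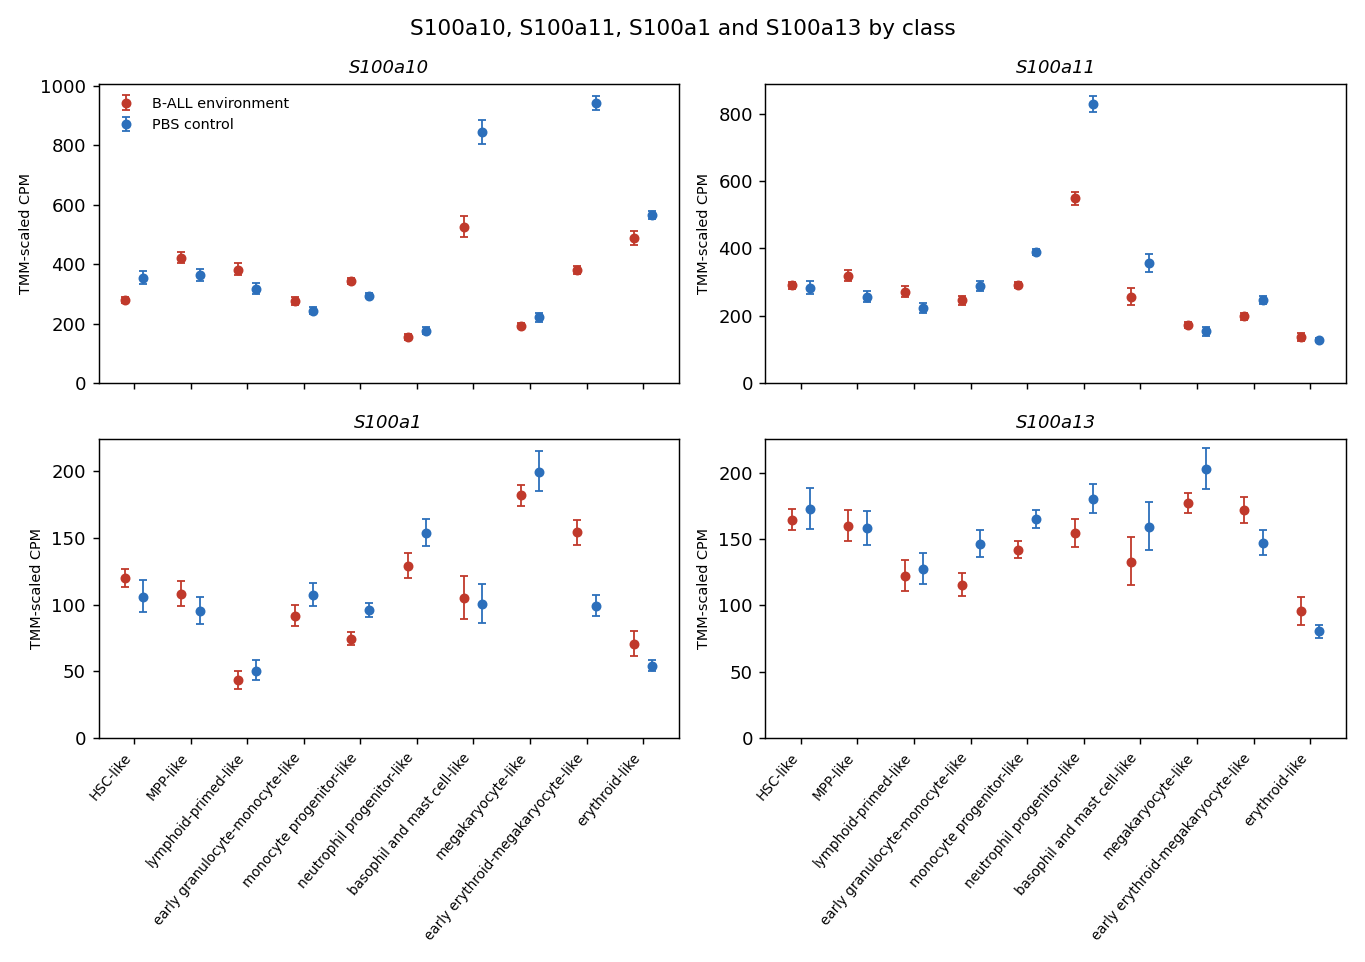
S100a10, S100a11, S100a1 and S100a13 in the 10 named classes in TMM-scaled CPM, with B-ALL environment in red, left of PBS control in blue, and bars for exact 95% Poisson intervals. The largest gap between groups is that of S100a10 in early erythroid-megakaryocyte-like cells, and S100a11 stands highest in neutrophil progenitor-like cells.

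S100a1 and S100a13 share a start region, and their full RefSeq promoter windows of 300 bases overlap by 204 bases. S100a1 is best known from muscle, where it tunes calcium release, and S100a13 takes part in the release of proteins that lack a signal peptide, such as FGF1. S100a1 had 109 CPM in the B-ALL environment and 92.8 in the PBS control, a log2 fold of 0.23 (0.18 to 0.28). Its highest level was in megakaryocyte-like cells, at 182 CPM in the B-ALL environment and 199.6 in the PBS control. In early erythroid-megakaryocyte-like cells it had 154 CPM in the B-ALL environment and 99.1 in the PBS control (0.64, 0.49 to 0.78), with 0.35 within cluster 11 and 0.70 within cluster 5. With classes by summed marker levels it was 0.25, which does not pass 1.5-fold. The rest of its named classes lay between -0.36 and 0.38, and unnamed cluster 9 was at 1.18 (0.46 to 1.95). S100a13 had 143 CPM in the B-ALL environment and 140.1 in the PBS control, a log2 fold of 0.03 (-0.01 to 0.07). Its class levels spanned 95.5 to 177 CPM in the B-ALL environment and 80.4 to 203 in the PBS control, and no class passed 1.5-fold.

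Most known partners of the family at 10 CPM or more stayed within 1.5-fold over all cells. Of all genes at that level, 3.94% were higher and 2.79% lower past 1.5-fold. The partner lists are too short for their counts to be read against those shares. Of 4 receptor-side genes at 10 CPM or more, 1 was higher past 1.5-fold and 0 were lower: Myd88, the adaptor of Toll-like receptors, at 34.0 CPM in the B-ALL environment and 18.8 in the PBS control (0.85). Ager, which encodes RAGE, was at 0.273 CPM in the B-ALL environment and 0.548 in the PBS control, and Tlr4 at 3.90 CPM in the B-ALL environment and 2.50 in the PBS control. Of 8 annexins, Anxa5 was higher (0.59) and Anxa3 was lower (-1.11). Annexin A2, the partner of S100a10, had a log2 fold of -0.16 over all cells, -0.52 in early erythroid-megakaryocyte-like and -0.68 in basophil and mast cell-like cells, the classes in which S100a10 was lowest relative to the PBS control. It had -0.62 in HSC-like, 0.55 in lymphoid-primed-like and 0.59 in erythroid-like cells. There S100a10 had -0.35 in HSC-like, 0.27 in lymphoid-primed-like and -0.21 in erythroid-like cells. Anxa1, the partner of S100a11, had -0.05 over all cells and 0.27 in neutrophil progenitor-like cells, where S100a11 had -0.59. Anxa11, which binds S100a6, had 0.41. Of 8 intracellular partners measured, 1 was higher: Ahnak, a giant scaffold protein bound by S100a10 with annexin A2, at 14.4 CPM in the B-ALL environment and 6.35 in the PBS control (1.19). Cacybp (-0.10) and Myh9 (0.14) were within 1.5-fold. Among 23 other EF-hand calcium sensors, 0 were higher and 0 were lower, with a median of 0.00. The medians were -0.08 for the receptor side, 0.09 for annexins and 0.11 for intracellular partners, beside -0.02 over all genes. S100pbp, which encodes an S100P-binding protein, had 0.16.

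Over the 20 sums of class and group, S100a4 and S100a6 had patterns most like each other among members, with a Pearson r of 0.93 on log2(CPM + 10). S100a1 and S100a13 had 0.78. The sums of each group come from the same libraries and differ in depth, so these values are descriptions. Outside the family, Laptm4a (0.88), Cplane1 (0.88) and Pim2 (0.87) were most like S100a4, and Susd3 (0.92), Casp12 (0.91) and Laptm4a (0.90) most like S100a6. S100a10 was most like Pbx4, Hdac7 and Jmjd1c (all 0.88), and S100a11 most like Ccdc125 (0.95), Gstm1 (0.95) and Sun2 (0.91). S100a1 was most like Zfp111 (0.86), Myl6 (0.85) and Ppic (0.85), and S100a13 most like Papss1 (0.90), Atp2a3 (0.89) and Tmco1 (0.83).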

How the data were processed

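The values deposited are raw counts of UMIs for each gene in each cell. They were made, per the submitters' processing notes, with Cell Ranger 4 and Seurat 4.0.1 on mm10 from 10x Chromium 3′ libraries, per the labels. The filters on cells and genes are not given in the sources used here. The authors' cell table gives a group prefix, the UMI total and the coordinates of a UMAP, a score without unit, all used as deposited. The prefix of the leukemic group was taken to mean the tumor environment. The members, lists and comparisons were chosen with earlier results of these data known.

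Leiden clusters were drawn on the coordinates of the deposited UMAP (scanpy 1.11.5, igraph 0.11.9, 30 neighbours, resolution 0.3). A name came from the most enriched marker list. It needed a mean log2 enrichment of 0.5 or more (10 CPM added), 3 or more markers present in 10% of cells, and no other list with more markers among the 10 leading genes. Cluster 19 stayed unnamed because T cell genes led it, a choice made after it was seen. Clusters 8, 9 and 12 also stayed unnamed. Class names are rebuilt, so they may differ from the study's. Scrublet called 3 cells of the B-ALL environment and 6 of the PBS control, too few to rely on, so no cell was removed, and its scores were used only for an alternative. Sums of UMIs over each class in each group were TMM-scaled with edgeR 4.0.16 in R 4.3.3. Folds have exact conditional and levels exact Poisson intervals, and shares exact Clopper-Pearson ones, all at 95% (scipy 1.17.1, numpy 2.4.6, pandas 2.3.3, python 3.11.15). UMIs are counted molecules, and intervals and floors (3 UMIs) cover counting error only. A member counted as past the threshold at 1.5-fold with a mean of at least 10 CPM. The interval was run on simulated Poisson counts as a check of the code only. Such counts follow the interval's own model and hold no spread between cells or animals.

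Every S100a symbol was named, with up to 4 genes of each other list by size of fold at 10 CPM or more, the main partners of members whatever their fold, and for each member at 10 CPM or more the 3 genes most like it. The partners were picked by role after their values were seen. Replicate-based tests planned for the case that cells could be tied to samples were not run. Alternatives were plain totals, size factors from DESeq2 1.42.0, other depth and doublet filters, other classes, equal class sizes and thinning. The comparison of member proteins was not made. Figures were drawn with matplotlib 3.10.9.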

Additional observations from a re-analysis of the deposited data

Results flagged for a closer look

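Of the more abundant members, 3 had log2 folds of opposite sign in different classes, with intervals away from 0 and the larger fold past 1.5-fold. S100a1 had 0.64 in early erythroid-megakaryocyte-like cells, or 0.25 with classes by summed marker levels, and -0.36 in monocyte progenitor-like cells. S100a11 had 0.31 in MPP-like and -0.59 in neutrophil progenitor-like cells. S100a10 had 0.27 in lymphoid-primed-like and -1.31 in early erythroid-megakaryocyte-like cells. S100a13 also had both signs with intervals away from 0, but neither fold passed 1.5-fold. It had 0.22 (0.10 to 0.35) in early erythroid-megakaryocyte-like and -0.34 (-0.49 to -0.20) in early granulocyte-monocyte-like cells. With 1 sample per group the difference between classes was not tested.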

How the results depend on the processing

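No paired analysis was possible because the cells carry no replicate number, and leaving out each replicate was not run for the same reason. Of the 82 class folds, plain UMI totals, size factors, leaving out cells below 3070 UMIs and leaving out the side cells (clusters 8 and 19 and globin-rich or immunoglobulin-rich cells, chosen after seeing the data) moved none beyond its interval. Classes by marker sums moved 30 beyond their intervals, turned the sign of 2 past 1.5-fold and left 49 within. Finer clusters moved 12, turned 1 and left 66. Keeping only cells with at least 10189 UMIs moved 13 and left 59. Leaving out the highest 5% of doublet scores turned 1 and left 81. Over all cells, keeping only cells with at least 10189 UMIs gave log2 folds of 2.28 for S100a6, 0.16 for S100a1, -0.032 for S100a13, -0.35 for S100a11 and -0.25 for S100a10. Equal numbers of cells of every class gave 2.44 for S100a4, 2.58 for S100a5, 1.81 for S100a6, -0.71 for S100a8, -0.26 for S100a11, -0.27 for S100a10, 0.031 for S100a1 and -0.12 for S100a13. Plain totals gave -0.16 for S100a11 and -0.38 for S100a10. Signs turned in some class folds. S100a4 in basophil and mast cell-like cells was -0.42 without the highest 5% of doublet scores (4 UMIs in the B-ALL environment and 6 in the PBS control). In early granulocyte-monocyte-like cells S100a8 was 0.85 with classes by marker sums, and S100a9 was 0.012 with finer clusters and 0.53 with marker sums. Marker sums also turned S100a8 in neutrophil progenitor-like cells to 0.14, S100a6 in basophil and mast cell-like cells to 0.67 and S100a11 in erythroid-like cells to -0.54. Smaller folds turned as well. Over the alternatives S100a13 went as low as -0.27 in erythroid-like cells (0.25 in the main setting) and -0.46 in MPP-like cells (0.02). S100a1 went as low as -0.33 in MPP-like cells (0.18). Without a filter on low values, the members lower past 1.5-fold were 3 in basophil and mast cell-like and early erythroid-megakaryocyte-like cells. They were 2 over all cells and in HSC-like, early granulocyte-monocyte-like, megakaryocyte-like and monocyte progenitor-like cells, and 1 in MPP-like, erythroid-like and lymphoid-primed-like cells. These counts leave out members with 0 UMIs in a group. Taken at the floor, S100a8 in erythroid-like cells (at most 0.438 times the PBS control level) and S100a9 in lymphoid-primed-like cells (at most 0.616 times) would make 2 in each of those classes. The members higher were 2 in early granulocyte-monocyte-like, erythroid-like and neutrophil progenitor-like cells and 1 in basophil and mast cell-like cells. The share of all genes past 1.5-fold without the filter is not given here, so nothing is read from these counts. After thinning, the ratio of shares of cells with a UMI, B-ALL environment to PBS control, was 7.33 for S100a4, 4.91 for S100a6, 1.23 for S100a1, 1.1 for S100a13, 0.926 for S100a10 and 0.091 for S100a9, the last on 3 cells. The causes were not tested. Depth limits S100a5, S100a8 and S100a9. Among the 10 named classes, those with UMIs in both groups and an interval away from 0 were 3 for S100a5, 6 for S100a8 and 5 for S100a9.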
